A study of Homo sapiens with 105 samples.

Results

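The response of HGrC1 cells expressing FOXL2 C134W to TGF-beta (TGF below) is described here, gene by gene. HGrC1 is an immortalized human granulosa cell line, and C134W is the missense change in the transcription factor FOXL2 that most adult granulosa cell tumors carry. The genes described are those whose mean normalized count, the read count divided by the library's size factor, was at least 100 in both deposited tables that compare C134W with wild-type FOXL2. They are 9278 of 26330 genes, and the response rests on 6 of the 105 samples of the series, which hold 27 RNA samples and 78 chromatin samples. The 6 are 3 libraries of HGrC1 transduced with mutant C134W FOXL2 and stimulated with TGF, and 3 libraries of the same cells without TGF. Groups set beside them are HGrC1 transduced with an empty vector (EV) and HGrC1 transduced with wild-type FOXL2 (WT), each 3 libraries with TGF and 3 without. KGN, a line from a human granulosa cell tumor that carries the C134W change in its own FOXL2 gene, has 5 labelled libraries with TGF and 4 without, although its table behaves as one made from 11 libraries. All HGrC1 groups were grown in Ham medium with serum. The dose and duration of TGF, the vector's promoter, and whether the transduced cells are a clone or a pool are not stated in any source used here. The title of the series names SMAD4 and SMAD2/3, so the question is what TGF changes in cells that hold it and how far KGN does the same.

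TGF-beta binds a pair of serine/threonine kinase receptors that phosphorylate SMAD2 and SMAD3, and these enter the nucleus with SMAD4 and act with other DNA-binding factors on target genes. SMAD7, SKIL, PMEPA1 and BAMBI feed back on the pathway. Granulosa cells surround the oocyte, convert androgens to estrogens through the aromatase CYP19A1, and make activins, inhibins and follistatin, which are ligands of the same superfamily and their binding proteins. FOXL2 is a forkhead factor needed for ovarian granulosa identity, and it can bind DNA together with SMADs.

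No deposited table compares the C134W groups with each other and none holds values per library. The level of a gene in C134W cells was therefore derived from the mean normalized count and the log2 fold change of the table with TGF and of the table without, after undoing the shrinkage that the authors' fit applied. The response is the log2 ratio of the level with TGF to the level without, centred on the median gene, which moved it by 0.01. "±" is the standard error of a log2 response, which covers counting error and the spread between libraries. "Rose" and "fell" mean an adjusted p under 0.05 in a two-sided Wald test with Benjamini-Hochberg adjustment over all 9278 genes. The labels do not name separate cultures behind the libraries of a group, so a p-value speaks of the spread among these samples alone, and that spread may be technical. The number of libraries that moved one way is unknown for any gene. The C134W libraries held an estimated 9020000 to 13600000 assigned reads without TGF and 9040000 to 19600000 with it. Levels of the same C134W libraries derived a second time from the EV tables differed by an SD of 0.004 without TGF and 0.005 with TGF on the log2 scale.

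Of the 9278 genes, 2167 rose (23.4%) and 1987 fell (21.4%), so 4154 (44.8%) passed. Scaled to total counts, which shifts the median by -0.04, 1846 rose and 2427 fell, so higher calls were 43.2% of calls instead of 52.2%. Most changes were small: 203 genes (2.19%) rose and 146 (1.57%) fell by at least 1 on the log2 scale, and the central 90% of responses lay between -0.57 and 0.68. The z values were more spread than the Wald test assumes for most genes being unchanged, and with the null scaled to their own spread (the wide null below) 667 genes passed (7.19%), 387 of them higher (4.17%) and 280 lower (3.02%). The counts of each gene list below are to be read against 23.4% rising and 21.4% falling among all genes, and against 4.17% and 3.02% with the wide null. The 12 highest and 12 lowest responses all passed with it.

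**Figure D1:**
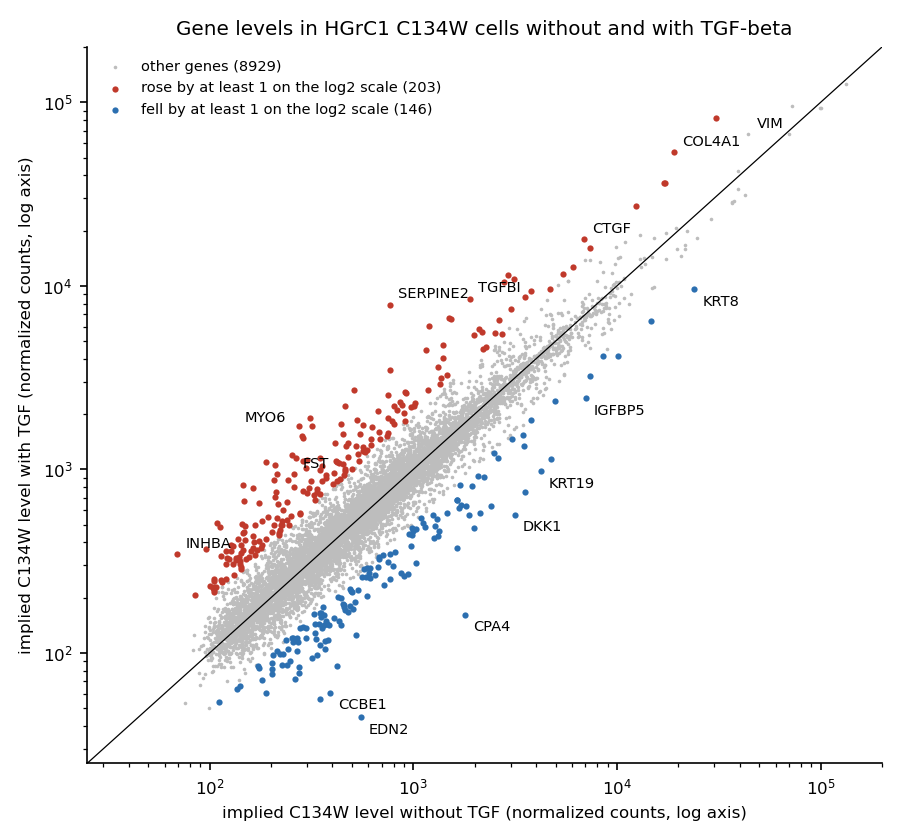
Implied level of each gene in HGrC1 C134W cells without TGF (x axis) and with TGF (y axis), in normalized counts on log axes, with the line of equal levels. Each point is 1 of 9278 genes. The 203 that rose by at least 1 on the log2 scale are red and the 146 that fell by at least 1 are blue, and SERPINE2, EDN2 and CPA4 lie farthest from the line.

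RNA composition moved with TGF too. Several transcripts without a poly(A) tail, which a poly(A)-selecting kit should leave out, had higher levels with TGF in C134W and WT cells; they were chosen after their values were seen. The level of RN7SK, the RNA that holds P-TEFb inactive, went from 13.8 to 185.3 in C134W, from 14.9 to 314.4 in WT and from 26.5 to 8.08 in EV. RPPH1, the RNA of ribonuclease P, went from 7.86 to 285.0 in C134W and from 10.9 to 450.7 in WT. The ribosomal RNA RNA28S5 was at 121.2 and 129.8 in C134W, where its response did not pass (adjusted p = 0.933 at a minimum of 10), and at 134.7 and 1027 in WT. Both of its levels with TGF rest on a choice between a pair of solutions, by a rule added after seeing the data. In EV cells RPPH1 was at 19.0 and 6.91, and in KGN RN7SK was at 95.7 and 213.6. Their part in the responses was not tested. The kit named in the labels does not mark strand, so reads of a gene and of an overlapping antisense gene cannot be told apart. Fewer cells of a type and less RNA per cell cannot be told apart in these bulk samples.

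Markers of other cell types were checked in the C134W libraries. None of 10 endothelial and 10 immune markers reached a level of 100, and their summed levels went from 29.5 to 23.0 and from 73.3 to 45.3 with TGF. CD3E, a T cell marker, was at 0 in both conditions, and PTPRC and PECAM1 were at 2.20 or less. Of 10 Sertoli markers 2 were measured, and their list's summed level went from 2296 to 1283, most of it CLDN11, which fell by 1.26. SOX9 rose by 0.44, a call that the wide null ended (adjusted p = 0.676). Of 11 theca and stroma markers 3 were measured, and the summed level went from 4698 to 2935, most of it NR2F2 at 3871 without TGF, above GATA4 at 2123. NR2F2 fell by 0.75 and LUM by 1.54, while ACTA2 rose by 1.25. The part of these markers in the responses was not tested. Granulosa markers were mixed. GATA4, KITLG and FST were present, and so was FOXL2, the transduced gene. Without TGF FOXL2 was at 7.16 and FST at 37.9 in EV cells. The FSH receptor gene FSHR was at 0.32 and 0.34 in C134W, the AMH receptor gene AMHR2 at 0.61 and 0.41, and the steroidogenic factor gene NR5A1 at 0.44 and 0.89, without and with TGF. CYP19A1 was at 0.64 and 69.0, INHA at 21.9 and 6.10, and ESR2 at 2.9 and 10.2.

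The transduced gene was itself lower after TGF. FOXL2 (chr3:138944224-138947137, GRCh38) was at 1339 without TGF and 836 with it, and fell by 0.68 ± 0.09 (adjusted p = 9.55e-14, Wald test). The wide null ended that call (adjusted p = 0.0971). The response was -0.56 in WT cells and -0.49 in KGN, and neither difference from C134W passed. In EV cells FOXL2 was at 7.16 and 7.88. The SMAD transducers showed no common direction. SMAD2 went from 1559.6 to 1440.2 (adjusted p = 0.0965) and SMAD4 from 1233 to 1275 (adjusted p = 0.574), neither passing in the Wald test, though SMAD2 passed as lower when levels were scaled to total counts (adjusted p = 0.0183). SMAD3 fell from 2934 to 1938, by 0.60 ± 0.05, with -0.55 in WT and -0.53 in EV cells. In KGN the SMAD3 response was -2.12 ± 0.06, lower by 1.52 than in C134W (adjusted p = 1.19e-80, Wald test of the difference).

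The strongest rise was that of SERPINE2, an extracellular inhibitor of thrombin and urokinase, from 769 to 7899.8 (3.36 ± 0.23). Its level without TGF in C134W and WT cells rests on a choice between a pair of solutions, by a rule added after seeing the data. Its response was 3.05 in WT and 3.47 in EV cells, where its level with TGF was 1534 and 109.0, and the differences from C134W did not pass (0.32 ± 0.33 and -0.10 ± 0.30). MYO6, an actin motor that moves toward the minus end, and CHN1, a GTPase-activating protein for Rac, followed. MYO6 went from 274 to 1729 (2.66 ± 0.10) and CHN1 from 309 to 1909.8 (2.63 ± 0.09). In WT cells the same genes had responses of 0.19 and 0.20, and in EV cells of 0.06 and 0.04. The difference from WT was 2.47 for MYO6 (adjusted p = 2.24e-38) and 2.43 for CHN1 (adjusted p = 1.13e-60), by the Wald test of the difference, and both differences passed with the wide null. In KGN their responses were 1.08 and 2.02. MAMLD1, a Mastermind-like gene, was at 2.53 ± 0.11 in C134W, 0.68 in WT, -0.67 in EV and 1.62 in KGN.

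The other 8 of the 12 highest had positive responses in WT cells too, from 1.33 to 2.64. IL6 rose from 146 to 823 (2.50 ± 0.14, WT 2.20), while in EV cells its level was 38.6 without and 9.69 with TGF. JUNB, an AP-1 subunit, rose from 287 to 1485 (2.37 ± 0.10, WT 2.64, EV 3.44). ASS1, which makes argininosuccinate for arginine synthesis, rose by 2.44 and COL7A1, the collagen of anchoring fibrils, by 2.34, against 3.48 and 3.05 in EV cells. The kinase gene STK17B went from 509.6 to 2703 (2.41 ± 0.07), more than in WT (1.33) and EV cells (0.50). PRDM8 rose by 2.41, the transcription factor gene SOX4 by 2.34, and INHBA, the activin A subunit, by 2.32.

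The deepest fall was that of EDN2, the vasoactive peptide endothelin 2, which ovarian follicles make at ovulation. It went from 551 to 44.6 and fell by 3.63 ± 0.17, against -1.50 in WT and -1.32 in EV cells. CPA4, a carboxypeptidase, went from 1793 to 162 and fell by 3.47 ± 0.09 (WT -1.44, EV -2.03, KGN -3.64). CCBE1, a secreted factor of lymphatic growth, went from 391 to 60.8 and fell by 2.69 ± 0.14 (WT -0.83, EV -0.94, KGN -2.38). The Wnt antagonist gene DKK1 went from 3140.2 to 567 and fell by 2.47 ± 0.06, with -1.01 in WT but -2.25 in EV cells. For EDN2, CPA4, CCBE1 and DKK1 the C134W response was lower than that of WT cells, also with the wide null. The rest of the 12 were ABCG2, a drug efflux pump (-2.63), C10orf54, now named VSIR, an immune checkpoint protein (-2.31), GPRC5A, an orphan receptor (-2.23), SDPR, now CAVIN2, a caveolar protein (-2.13), the keratin gene KRT19 (-2.11), the desmosome-linked PPL (-2.07), the oxytocin receptor gene OXTR (-2.06) and CYP1B1, an estrogen hydroxylase (-2.06). OXTR fell less in WT cells, at -0.73, and PPL was at -0.04 in EV cells.

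**Figure D2:**
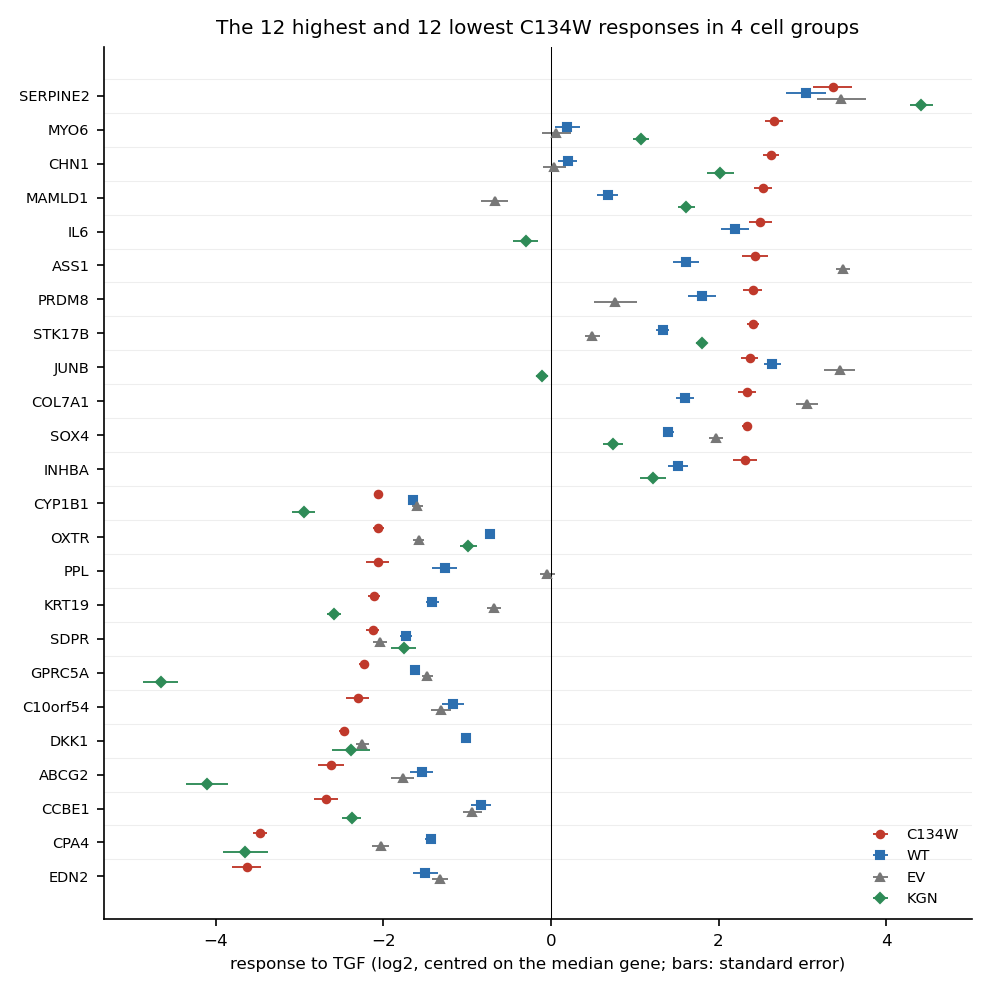
Response to TGF on the log2 scale (x axis) for the 12 highest and 12 lowest C134W responses (y axis), in C134W, WT, EV and KGN cells, with bars for the standard error and no point where the gene's mean was under 100. In MYO6, CHN1 and MAMLD1 the C134W and KGN points lie to the right of those of WT and EV, and in EDN2, CPA4 and CCBE1 the C134W point lies to the left of those of WT and EV.

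Promoters were searched for the letters of factors that act with SMADs. The window was the 250 bases before each RefSeq start (GRCh38.p14), read on both strands for CAGAC (the SMAD box), TGTTTAC (forkhead) and TGANTCA (AP-1); matches to different motifs can share their end bases. By symbol 7254 of the 9278 genes matched, with 10728 windows. CAGAC was present in 40.6% of the 271 windows of genes that rose by at least 1, 31.6% of the 174 windows of genes that fell by at least 1 and 36.1% of all 10728. TGTTTAC was in 1.48%, 2.3% and 2.1% of them, and TGANTCA in 4.43%, 3.45% and 4.0%. All 12 highest and 8 of the 12 lowest genes matched, and CAGAC was in 35.3% of the 17 windows of the former and 35.7% of the 14 windows of the latter. A match is a description of letters and not a site. The windows below show, for the highest and the lowest genes with a single start, the one richest in CAGAC, with every match to the 3 motifs in capitals, 5′ to 3′ on the gene's strand. The STK17B window lies at chr2:196171579-196171828 on the minus strand and the CPA4 window at chr7:130292911-130293160 on the plus strand.
STK17B: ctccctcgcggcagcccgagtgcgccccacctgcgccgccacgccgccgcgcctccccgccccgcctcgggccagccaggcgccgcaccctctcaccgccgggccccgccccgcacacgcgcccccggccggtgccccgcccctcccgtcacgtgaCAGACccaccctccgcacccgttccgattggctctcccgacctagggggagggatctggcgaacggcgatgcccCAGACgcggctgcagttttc
CPA4: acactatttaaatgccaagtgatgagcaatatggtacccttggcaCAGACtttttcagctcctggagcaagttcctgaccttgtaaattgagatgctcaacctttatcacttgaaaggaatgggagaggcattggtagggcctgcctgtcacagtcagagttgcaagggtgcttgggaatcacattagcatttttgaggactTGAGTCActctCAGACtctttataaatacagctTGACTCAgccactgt
STK17B holds CAGAC 2 times and neither of the others. CPA4, which fell, holds CAGAC 2 times as well and TGANTCA 2 times.

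Among TGF-beta family ligands, receptors and latent binding proteins, 8 of 12 measured genes rose and 3 fell (3 and 2 with the wide null), with a median of 0.38 against 0 for all genes. INHBA went from 69.4 to 346, more than in WT cells (1.52), where it started at 240.4, a difference that did not pass with the wide null (adjusted p = 0.0792). The latent binding protein gene LTBP2 rose by 1.51 and ACVR1, a type I receptor, by 1.22. With INHBA they were the 3 that rose with the wide null. TGFB1 rose by 0.54 in the Wald test. The ligand gene TGFB2 went the other way, from 2430.0 to 1245 and fell by 0.96 ± 0.05, whereas in WT cells it was at 3285 and 3492 (response 0.09). The type II receptor gene TGFBR2 fell by 0.43, a call that the wide null ended (adjusted p = 0.305), and TGFBR1 rose by 0.28.

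Of the 18 SMAD transducers and regulators 9 rose, 2 fell and 7 did not pass (3 and 2 with the wide null). PMEPA1, which sequesters receptor-activated SMADs, rose from 299.8 to 1129 (1.91 ± 0.09). The corepressor genes SKIL and TGIF1 rose by 1.34 and 1.15. SMAD7 rose by 0.50 ± 0.09, less than in EV cells (1.61), a rise that did not pass with the wide null (adjusted p = 0.367). BAMBI, a decoy receptor, went from 969 to 381 and fell by 1.35 ± 0.08, against -0.53 in WT and 0.01 in EV cells.

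The list of TGF-beta and SMAD induced genes moved farthest. Of 32 measured members of 44, 28 rose (87.5%, against 23.4% of all genes), only BAMBI fell, and TSPAN2, KLF10 and RUNX1 did not pass, at 0.16, 0.10 and -0.01. With the wide null 22 rose and 1 fell. The median response was 1.15 in C134W, 1.00 in WT and 1.61 in EV cells. TGFBI, a secreted matrix protein, went from 1899 to 8509 (2.16 ± 0.05). It started lower and rose less than in WT cells, where TGFBI went from 3930 to 28972 (2.88). In EV cells TGFBI rose by 4.98. For 12 of the 32 genes the C134W response was lower than that of WT cells and for 6 it was higher, against 7.64% and 6.1% of all genes. Against EV cells it was lower for 22 of 31 and higher for 6, against 11.4% and 10.2% of all genes. The higher members included CDKN1A, a cell cycle inhibitor, at 1.45 against 0.47 in WT. CDKN2B, another such inhibitor, was at 0.91 against 1.57.

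Of 13 BMP genes 4 rose (30.8%, against 23.4% of all genes) and 5 fell (38.5%, against 21.4%), and 0 and 4 did with the wide null. The inhibitors of differentiation that BMP signaling induces fell together: ID2 from 368 to 105 (-1.81 ± 0.13), ID3 from 799 to 298 (-1.42 ± 0.09) and ID1 from 456 to 177 (-1.36 ± 0.11). ID4 rose by 0.51, against -0.60 in WT and -0.98 in EV cells. BMP2 and BMP4 fell by 1.07 and 0.99, while BMP6 and the type II receptor gene BMPR2 rose by 0.59 and 0.53, rises that ended with the wide null (adjusted p = 0.429 and 0.077).

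Follistatin set C134W cells apart within the activin pathway. FST (chr5:53480629-53487134) rose from 259 to 941 (1.86 ± 0.10) in C134W, while its response was -0.50 in WT cells, from 308.4 to 217.7, and -0.25 in EV cells, from 37.9 to 32.0. The difference from WT was 2.37 (adjusted p = 2.92e-56, Wald test of the difference). In KGN the FST response was 0.32, lower than in C134W by 1.54. Of 7 genes of this pathway 4 rose and 2 fell, against 23.4% and 21.4% of all genes (3 and 2 with the wide null, which ended the FSTL3 call, adjusted p = 0.589). Besides FST and INHBA these were ACVR1 and FSTL3, which rose, and FSTL1 and CRIM1, which fell by 0.61 and 0.69, against -0.23 and -0.13 in WT cells.

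Of 14 granulosa identity and steroid synthesis genes 6 rose (42.9%, against 23.4% of all genes) and 4 fell (28.6%, against 21.4%), with 2 and 2 under the wide null and a median of 0.09. KITLG, the granulosa ligand of the oocyte's KIT receptor, went from 327 to 129 and fell by 1.34 ± 0.13. GATA4 went from 2123 to 1148 and fell by 0.89 ± 0.06, close to -0.83 in WT cells. The progesterone receptor gene PGR rose by 0.82, against -1.17 in WT and -0.77 in EV cells. HSD17B1, which reduces estrone to estradiol, rose by 0.49. The 2 rises that passed with the wide null were those of FST and INHBA.

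Genes under the minimum in 1 of the tables were left out of these counts, and some of the widest contrasts lay there. Of 258 genes at 100 or more only in the table with TGF 186 rose and 0 fell, and of 189 at 100 or more only in the table without TGF 0 rose and 113 fell, when the test ran at a minimum of 10. The minimum itself favours that direction, so nothing is read from it. CYP19A1, the aromatase (chromosome 15), was at 0.64, about 2 reads in all, without TGF and at 69.0 with it. Taken as exactly 2 reads without TGF, the ratio was 111.6 with a 95% exact counting interval of 30.9 to 922, which covers counting error only, so its size is poorly known. Without TGF it was at 0.69 in WT and 0.17 in EV cells. With TGF the derived levels there, 0.00685 and 0.00382, lie below what a single read would give, so they are not measured amounts. In KGN the authors' deposited table gives a log2 fold change of 3.43 ± 0.19 for TGF. The shrinkage is still in that value, unlike in the ratio above and in the other KGN responses here. RefSeq lists 7 starts of CYP19A1, and gonads use a start next to the coding exons. The most downstream window, chr15:51243030-51243279 on the minus strand, holds CAGAC on either strand 2 times (capitals) and neither other motif.
CYP19A1: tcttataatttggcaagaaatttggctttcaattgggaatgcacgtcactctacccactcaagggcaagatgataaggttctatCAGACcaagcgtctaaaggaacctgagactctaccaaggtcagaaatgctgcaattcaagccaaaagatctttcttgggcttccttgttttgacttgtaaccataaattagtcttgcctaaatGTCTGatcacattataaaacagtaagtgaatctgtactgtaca
ANGPTL4, a secreted lipase inhibitor, was at 20.3 and 395.7 in C134W, without and with TGF, and at 23.1 and 178.0 in WT cells. LTBP1, which anchors latent TGF-beta, was at 96.8 and 825.3, against 96.7 and 157.5 in WT cells. TNFSF4 was at 109.0 and 1185, and the chemokine gene CXCL6 at 9.08 and 138.8, while CXCL6 in WT cells was at 3.46 and 1.12. The TNFSF4 level of 109.0 rests on the same choice between solutions as the SERPINE2 level without TGF. Among the genes lost, the aldo-keto reductase gene AKR1B10 was at 261.4 and 15.5, and at 179.3 and 19.4 in WT cells. The epithelial factor gene ELF3 was at 138.4 and 9.39, and at 65.7 and 24.5 in WT cells. Just outside the minimum, at means of 99.89 and 99.97, TIGD2 and RWDD4 had responses of -0.58 and 0.20, and just inside, at 100.1 and 100.3, ZNF839 and KCTD18 were at 0.05 and 0.05.

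Collagens and matrix genes showed 13 of 29 rising (44.8%, against 23.4% of all genes) and 7 falling (24.1%, against 21.4%), with 9 and 6 under the wide null. COL4A1, a basement membrane collagen, rose from 19102 to 53256 (1.48 ± 0.04), COL1A1 by 1.41 and the crosslinking enzyme gene LOX by 1.37, with 1.52, 1.60 and 1.47 in WT cells. COL3A1, SPARC and COL5A2 fell by 0.44, 0.38 and 0.64. COL8A1 and the proteoglycan gene LUM fell by 1.53 and 1.54. The C134W response was lower than that of WT cells for 14 of the 29 and higher for 2, against 7.64% and 6.1% of all genes.

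All 20 matrix protease, inhibitor and plasminogen genes passed, 14 higher and 6 lower (12 and 5 with the wide null), with a median of 0.96. SERPINE2 was the highest. PLAU, the urokinase, rose from 3122 to 10836 (1.80 ± 0.05), against 0.48 in WT and 0.54 in EV cells, and its receptor gene PLAUR rose by 1.20, against 0.54 in WT. The tissue activator gene PLAT rose by 1.95 and the gelatinase gene MMP2 by 1.30. Falls came from ADAMTS1, an aggrecanase needed for ovulation (-1.61), from CEMIP, which degrades hyaluronan (-1.82), and from CPA4. Among 16 integrins and laminins 9 rose and 3 fell (5 and 2 with the wide null). ITGA1 rose by 2.17 and ITGB5 by 1.47, both more than in WT cells (1.40 and 0.72), while ITGB4 and ITGB8 fell by 1.75 and 1.28.

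Epithelial genes fell more often than they rose, 9 against 3 of 15 (4 and 1 with the wide null). The paired keratins of simple epithelium fell together, KRT8 from 23822 to 9587 (-1.31 ± 0.06) and KRT18 from 14737 to 6453 (-1.19 ± 0.04). In WT cells these responses were -0.48 and -0.66, and in EV cells 0.13 and 0.11. The desmosomal plaque gene DSP rose against the list, from 296 to 1016 (1.78 ± 0.10). Of 7 EMT factors and mesenchymal genes 5 rose and 1 fell, none by 1 or more, against 23.4% and 21.4% of all genes, and with the wide null 2 rose and 1 fell. VIM, the mesenchymal filament, rose by 0.60, and CDH2 and ZEB1 by 0.47 each. CDH11 fell by 0.77.

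Contractile genes rose in 12 of 20 cases and fell in 3 (8 and 1 with the wide null). SYNPO2, an actin-bundling protein, rose by 1.62, smooth muscle actin ACTA2 by 1.25, TAGLN by 1.15 and TPM1 by 1.10. The filamin gene FLNC fell by 1.04, against -0.22 in WT cells. Non-muscle myosin MYH9 fell by 0.22, which did not pass with the wide null (adjusted p = 0.486), whereas its response was 0.26 in WT cells.

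Targets of YAP and TEAD, which read out cell tension and density, fell in 14 of 24 cases and rose in 3 (9 and 1 with the wide null). CTGF, also a TGF-beta target, rose from 6856 to 17933 (1.39 ± 0.04). ANKRD1 went from 1683 to 615 and fell by 1.45 ± 0.06, while WT cells kept 3412 and 3333 (response -0.03). AXL, a receptor kinase, fell by 1.18 and AJUBA by 0.92. CYR61 was at -0.01. The list's median was -0.31 in C134W, 0.02 in WT, -0.33 in EV and -0.38 in KGN, and 13 of the 24 responses were lower and 3 higher than in WT cells, against 7.64% and 6.1% of all genes.

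Among AP-1 and immediate early genes 17 of 26 rose and 2 fell (9 and 1 with the wide null). Besides JUNB, the repressor gene BHLHE40 rose from 442 to 1760.5 (1.99 ± 0.08). PHLDA1 rose from 1394 to 4747 (1.77 ± 0.06), while its response was -0.58 in WT, -0.01 in EV and -0.78 in KGN, and each of the 3 differences passed. DUSP1, a MAP kinase phosphatase, fell by 0.87. Of 21 growth factors and receptors 8 rose and 12 fell, against 23.4% and 21.4% of all genes, and with the wide null 5 rose and 6 fell. VEGFA rose by 1.62 and PDGFB by 1.51, while IGFBP5 fell by 1.52, IGFBP6 by 1.40 and HBEGF by 1.16. Of 11 interleukin, chemokine and NF-kB genes 7 rose and 2 fell (3 and 0 with the wide null), with IL6 and the NF-kB inhibitor gene TNFAIP3 (1.55) highest and IL18 lowest (-0.99). Notch genes rose in 4 of 6 cases, led by JAG1 (1.00) and LFNG (0.81), and none passed with the wide null. Wnt genes rose in 3 and fell in 3 of 7 cases (0 and 2 with the wide null). WNT5B rose by 0.86 and SFRP4 by 0.41, less than in WT cells (2.03 and 2.08), and FZD2 and DKK1 fell.

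The p53 target genes rose in 16 of 20 cases and fell in 1 (8 and 1 with the wide null), with a median of 0.51 in C134W, 0.22 in WT and 0.38 in EV cells. PLK3 rose by 1.61, SESN2 by 1.58 and RRM2B, a ribonucleotide reductase subunit, by 1.11. PLK2 fell by 1.17. Of the 20, 12 had a higher response than in WT cells and 1 a lower one, against 6.1% and 7.64% of all genes. In the cell cycle lists changes were small. Of 32 G2/M genes 18 fell and 5 rose, from -0.79 for CDC25B to 0.62 for CENPE, and with the wide null 2 fell and 0 rose. Of 34 S phase genes 15 fell and 4 rose, with 1 and 0 under the wide null.

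ATF4 and ER stress genes rose in 21 of 30 cases and fell in 1 (14 and 0 with the wide null). DDIT4, an inhibitor of mTORC1, rose from 252 to 1204 (2.26 ± 0.11, WT 2.14, EV 3.52), CHAC1 by 1.80, the asparagine synthetase gene ASNS by 1.53 and ATF4 by 0.76. Cholesterol synthesis genes fell in 12 of 25 cases and rose in 2 (2 and 1 with the wide null). LSS, the lanosterol synthase, fell by 0.68, while FDFT1, the squalene synthase, rose by 0.83. The list's median was -0.09 in C134W, 0.28 in WT and -0.46 in EV cells, and for 15 of 25 genes the C134W response was lower than that of WT cells and for 1 higher, against 7.64% and 6.1% of all genes. Hypoxia and glycolysis genes fell in 12 of 25 cases and rose in 6 (2 and 3 with the wide null), with PFKFB3 at 1.79 and ENO1 at -0.45. Of 12 type I interferon genes 4 rose and 5 fell, against 23.4% and 21.4% of all genes, and with the wide null 0 rose and 1 fell. Of 72 cytosolic ribosomal protein genes 66 did not pass, 2 rose and 4 fell, and all 72 lay between -0.28 and 0.25.

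**Figure D3:**
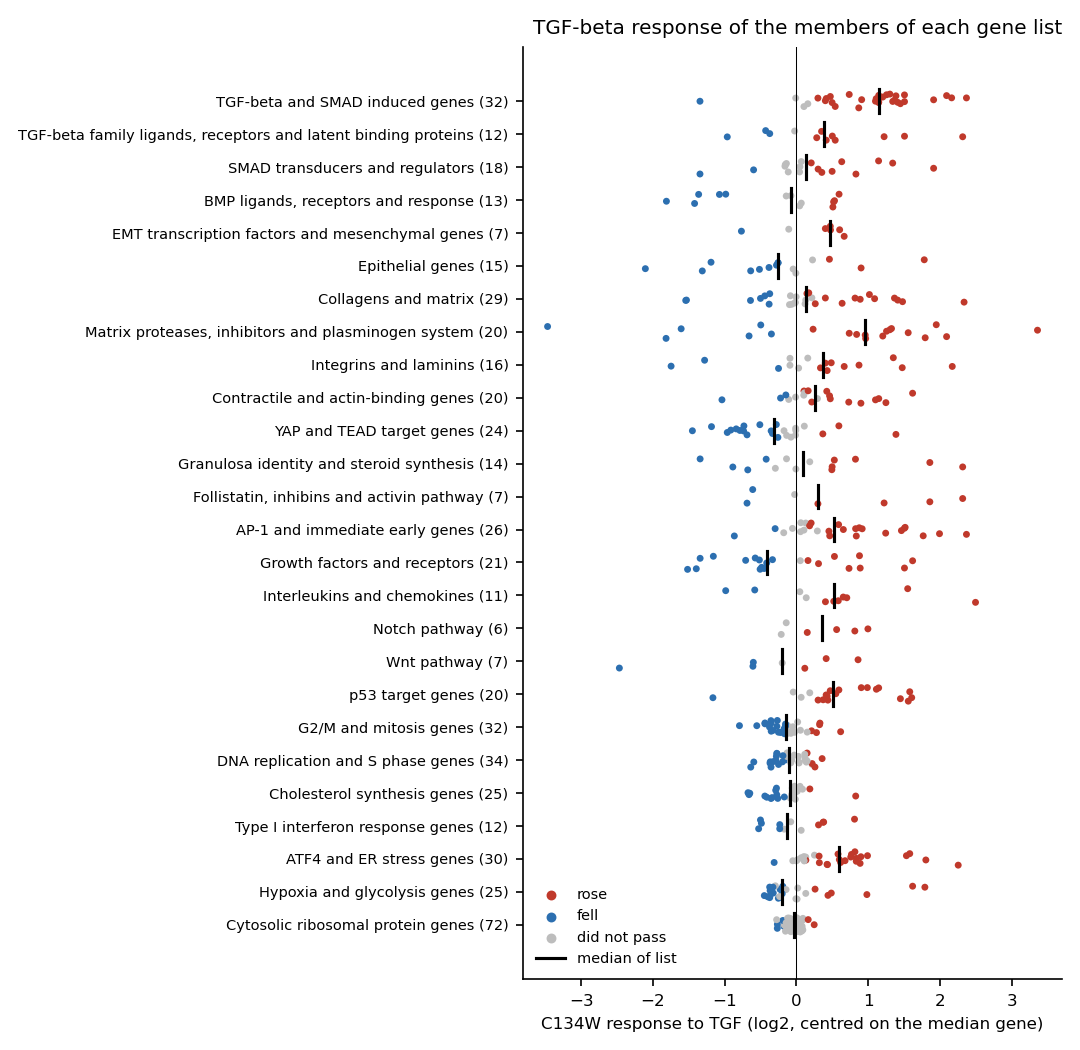
C134W response to TGF on the log2 scale (x axis) of each measured member of the lists with at least 6 (y axis, number measured in parentheses). Points are genes, red where they rose, blue where they fell and grey where they did not pass, and black bars are medians, which run from -0.41 for growth factors and receptors to 1.15 for the TGF-beta and SMAD induced genes.

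Against WT cells, the C134W response differed for 1275 of 9278 genes (13.7%), higher for 566 (6.1%) and lower for 709 (7.64%). With the wide null 413 differed. Of the 203 genes that rose by at least 1, 116 rose further than in WT cells and 9 less, with medians of 1.31 and 0.85. Of the 146 that fell by at least 1, 95 had a lower response than in WT cells and 2 a higher one, with medians of -1.29 and -0.75. These genes were chosen for a large C134W response, which favours a larger response in C134W than in any other group. Against EV cells 1989 of 9194 responses differed (21.6%), 941 higher (10.2%) and 1048 lower (11.4%), and 524 with the wide null. Across genes, Pearson's r was 0.74 between the C134W and WT responses over 9278 genes and 0.57 between C134W and EV over 9194, as a description, since genes are not independent and the groups were normalized in shared tables.

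KGN carries the mutation in its own gene and is another cell line, sequenced as a separate experiment according to the sample titles, so line, experiment and dose of mutant cannot be told apart. The authors' deposited table for KGN called 6254 of 15719 genes (39.8%), 3113 higher (19.8%) and 3141 lower (20.0%) with TGF. Of the 8342 genes with a mean of at least 100 in all 3 tables, 2281 were called in both cells, 1867 in the same direction (1015 higher and 852 lower) and 414 in opposite directions. Among the 8342 genes 3756 were called in C134W and 4204 in KGN, so many would be called in both without any link between the cells. The 1867 are 49.7% of the C134W calls and 44.4% of the KGN calls among these genes. Pearson's r of the KGN response was 0.55 with C134W and 0.51 with WT cells across the 8342 genes, and 0.21 with EV cells across the 8299 of them measured there, a description only.

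Strong C134W responses were mostly shared with KGN in direction. Of the 166 genes that rose by at least 1 and were measured in KGN, 135 were higher and 10 lower there by the authors' deposited table, and 72 had a KGN response of at least 1. The medians were 1.31 in C134W and 0.89 in KGN. Of 94 that fell by at least 1, 82 were lower and 3 higher in KGN by the authors' deposited table, and the medians were -1.29 and -1.08. These counts are to be read against 4204 of all 8342 genes called in KGN, in either direction. Over all genes that rose by at least 1 and were measured there, the median was also positive in WT (0.85) and EV cells (0.73). Over those that fell it was negative (-0.75 and -0.78), so a shared direction is not particular to KGN. SERPINE2 was at 4.42 in KGN, CPA4 at -3.64, DKK1 at -2.39 and KRT8 at -1.32. For CPA4, DKK1, KRT8, KITLG and ANKRD1 the difference between the cells did not pass. Their differences were 0.17 ± 0.28, -0.08 ± 0.24, 0.01 ± 0.10, 0.19 ± 0.21 and -0.09 ± 0.21. Differences of that size cannot be told from 0.

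The C134W and KGN responses differed for 3047 of the 8342 genes (36.5%), with C134W higher for 1697 (20.3%) and lower for 1350 (16.2%). With the wide null 233 differed, and all 16 genes named for the largest differences were among them. DDIT4, PAPPA, C1R and ADAMTS1 moved by at least 1 in opposite directions. DDIT4 rose by 2.26 in C134W, with 2.14 in WT and 3.52 in EV cells, and was at -1.56 ± 0.34 in KGN. PAPPA, a protease that frees IGF from its binding proteins, went from 348 to 733 (1.07 ± 0.10) in C134W and was at -2.21 ± 0.10 in KGN. In WT and EV cells PAPPA was at 0.62 and 0.22. C1R, a complement protease, was at 1.21 ± 0.16 and -1.25 ± 0.06, with -0.55 in WT cells, and its C134W rise did not pass with the wide null (adjusted p = 0.114). ADAMTS1 went from 1316 to 432 and fell by 1.61 ± 0.07 (WT -0.86, EV -1.93), and was at 1.14 ± 0.24 in KGN. PLEKHG4, IL6, PVRL1 (now NECTIN1), PHLDA1 and JUNB completed the 8 highest differences, IL6 at -0.30 and JUNB at -0.11 in KGN. PVRL1 rose from 265 to 1157 (2.13 ± 0.10), against -0.12 in WT, -0.46 in EV and -0.64 in KGN. CORO2A, a coronin, was at 1.86 ± 0.10 in C134W and 4.19 ± 0.16 in KGN. ADAMTS5, DLC1, MGLL, TLL1, ABLIM1 and SLC2A1 were the other genes whose response was much lower in C134W. The glucose transporter gene SLC2A1 rose by 0.26, which did not pass with the wide null, and by 2.06 in KGN, and ABLIM1, an actin-binding protein, was at 0.61 and 2.46.

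**Figure D4:**
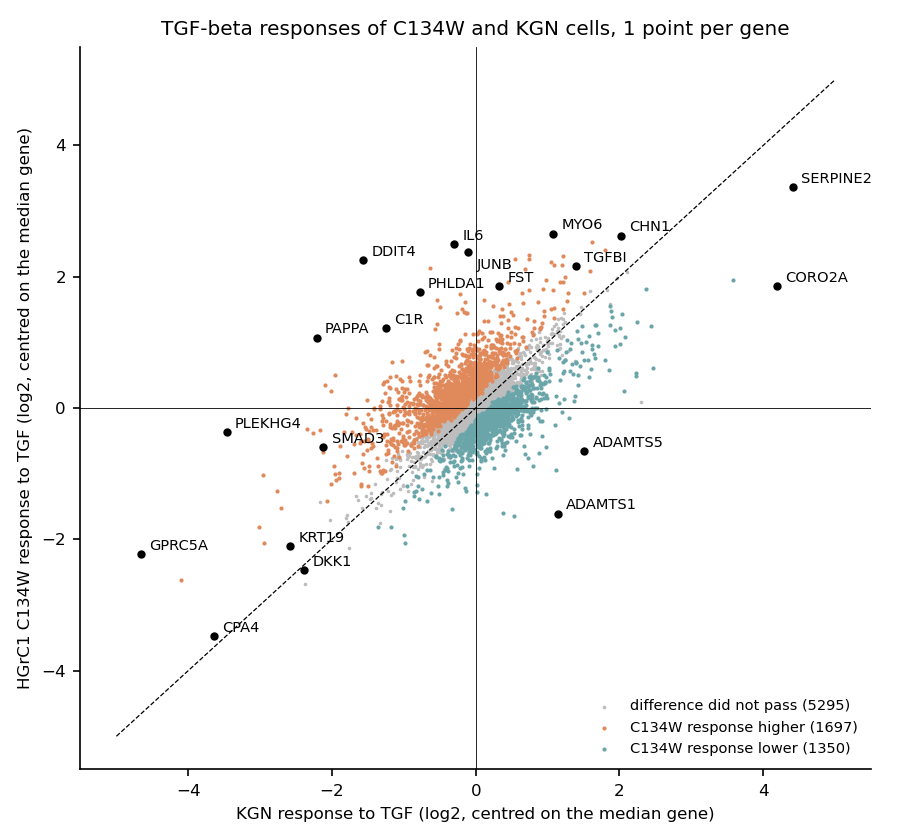
Response to TGF of KGN cells (x axis) and of HGrC1 C134W cells (y axis), both on the log2 scale and centred on the median gene, for 8342 genes, with the line of equal responses dashed. Grey points are genes whose difference did not pass, orange those with a higher and teal those with a lower C134W response. DDIT4, PAPPA and C1R lie at the upper left and ADAMTS1 at the lower right.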

How the data were processed

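RNA was measured in 27 samples, of which the 6 C134W libraries (3 with TGF and 3 without) are described and the WT, EV and KGN groups are set beside them. The 78 chromatin samples were not analysed here. Libraries were made with a poly(A)-selecting kit that does not mark strand, per the labels' protocols. The submitters' processing notes name DESeq2, HTSeq 0.6.1, Trimmomatic 0.36.0 and Bowtie2, and the hg38 build. Of the 5 tables the authors deposited, each with 26330 genes, each row holds the mean signal (counts divided by size factors), the log2 fold change and its standard error, the Wald statistic (a score), and the p-value with its adjusted p-value. None holds values per library.

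The fold changes were moderated toward 0 by a normal prior. Its width was found from the largest standard errors and undone, and group levels and their errors were solved from the mean, fold change and standard error. Each standard error fits a pair of solutions for the information behind it, and the higher was used by default. For 4 genes (RNA28S5, SERPINE2, TNFSF4 and NME2) the lower was used, and RNA28S5 and SERPINE2 are the 2 in the response. The lower information was used there because the WT and EV tables then gave the same level, a rule added after seeing the data. Genes of low mean and all KGN values were not checked by this rule, so they rest on the higher solution. Depths were estimated from genes with a single read, so they are approximate. Differences between responses were tested by a two-sided Wald test over the root of the summed squared errors. All p-values were Benjamini-Hochberg adjusted over all genes compared, at a mean of at least 100. The wide null centres z on its median and scales it by its median absolute deviation (2.95). The method was tested on simulated data for the C134W response over 9278 genes. There 0.0551% of unchanged genes, 89% of genes changed by 0.5 and 100% of genes changed by 1 on the log2 scale were called. The simulated counts were drawn with the same dispersions and depths that the test assumes, so their z had an SD of 1.0 over unchanged genes. These shares therefore cannot speak to the wider spread of the real z values.

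Named genes were the 12 highest and 12 lowest called responses, the 2 highest and 2 lowest called members of each of 30 lists, the 8 highest and 8 lowest called differences from KGN, and FOXL2, SMAD2, SMAD3, SMAD4, SMAD7, TGFBI, CYP19A1 and FST. Other genes named are list members or are given where a result turns on them, and they were picked after their values were seen. A few genes that these rules name are not reported here. The members and lists were chosen with earlier results of these data known. Promoter sequences and coordinates are from RefSeq. Python 3.11.15, numpy 2.4.6, pandas 2.3.3, scipy 1.17.1 and matplotlib 3.10.9 were used.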

Additional observations from a re-analysis of the deposited data

Results flagged for a closer look

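Differences between groups in the response to TGF brought several results here, all by the Wald test of the difference itself. The C134W response differed from that of KGN for 3047 genes, from that of WT cells for 1275 and from that of EV cells for 1989. The genes with the largest higher response in C134W than in KGN, as a difference on the log2 scale, were DDIT4 (3.82), PAPPA (3.29), PLEKHG4 (3.10), IL6 (2.80), PVRL1 (2.77), PHLDA1 (2.55), JUNB (2.48) and C1R (2.46). PLEKHG4 was at -0.36 in C134W, -0.46 in WT, -0.27 in EV and -3.47 in KGN. Those with the largest lower response were ADAMTS1 (-2.75), CORO2A (-2.33), MGLL (-2.18), ADAMTS5 (-2.17), DLC1 (-2.07), TLL1 (-1.98), ABLIM1 (-1.85) and SLC2A1 (-1.80). MGLL, the lipase of monoacylglycerols, was at -1.65 in C134W and 0.53 in KGN.

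CYP19A1 lay outside the genes compared, since its mean was under the minimum, and its level of 69.0 in C134W cells with TGF stood above that of every other HGrC1 group.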

How the results depend on the processing

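The wide null left 667 of the 4154 called genes (387 higher, 280 lower), 233 differences from KGN, 413 from WT and 524 from EV cells, and 37 of the 128 named genes lost their call with it, while 182 genes rose and 126 fell by at least 1. A minimum mean of 500 gave 2267 called genes (1180 higher, 1087 lower), with 73 rising and 47 falling by at least 1, and a minimum of 10 gave 445 and 329 of these. Every other setting kept the count of called genes between 3310 (adjusted p under 0.01) and 4903 (minimum of 10), and no named gene changed direction. Scaling to total counts turned the balance of calls from 2167 higher and 1987 lower to 1846 and 2427, and with the wide null the hypoxia list went from 6 higher and 12 lower to 3 and 2. Using the higher information for every gene, a setting added after seeing the data, gave 4156. Of 1475 pairs of a named gene and a setting, 1431 kept direction and call. No paired analysis was possible because the tables hold no values per library, and for the same reason no library could be left out, so whether 1 library decides a value is unknown.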
